A study of Homo sapiens with 72 samples.

Results

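The effect of cycloheximide on mRNA levels was compared between A375 cells with and without CTU2 depletion, at 3 h of treatment. A375 is an established human melanoma line. The comparison used 12 of the 72 libraries of the series, which were chosen by their labels (siRNA, drug arm and time) and not by any measured value. The groups were siCTU2 T, siCTU2 TCHX, siGL2 T and siGL2 TCHX, with 3 libraries in each. siCTU2 cells had received a pool of 2 siRNAs against CTU2, and siGL2 cells a control siRNA, by transfection 42 h before the drugs. Cells of the T arm then received triptolide (25 µM), and those of the TCHX arm triptolide (25 µM) with cycloheximide (100 µg/ml). The quantity examined is the difference TCHX minus T in siCTU2 cells minus the same difference in siGL2 cells, on the log2 scale, hereafter the interaction. All 12 libraries thus carried triptolide and an siRNA. Because the siRNAs against CTU2 were pooled, the effects of each cannot be told apart. The labels number the replicates 1 to 3 but do not say that they were separate cultures, so the p-values measure the spread between these libraries, which may be technical.

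Triptolide stops transcription by RNA polymerase II, so that the level left after some hours depends on how fast an mRNA decays. Cycloheximide stops translating ribosomes, and mRNAs whose decay needs translation are kept at higher levels in its presence. CTU2 is a subunit of the enzyme that places a sulphur atom on the wobble uridine of the tRNAs that read the codons AAA, GAA and CAA. The comparison therefore asks whether the part of mRNA decay that is sensitive to cycloheximide differs when this tRNA modification enzyme is depleted.

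The siRNAs are shown because sites for the seeds of the siCTU2 siRNAs were looked up in the mRNAs described here. The control siGL2 is given beside them. The strand complementary to the target mRNA (antisense, 19 bases without the overhang) is written 5′ to 3′, with the seed, bases 2 to 8, in capitals.
siCTU2#1 antisense: uUGGUCAUgagcuugauag
siCTU2#2 antisense: aAGUCCUUcauguucacgc
siGL2 antisense: uCGAAGUAuuccgcguacg
In GRCh38, siCTU2#1 matched chr16:88713389-88713407, in exon 8 of 15 of CTU2 (plus strand), and siCTU2#2 matched chr16:88714907-88714925, in exon 13. Both sites lie in the coding sequence. CTU2 had 2 to 20 counts in each siCTU2 library at 3 h and 214 to 369 in each siGL2 library, with no overlap. Its normalised count was 6.22 ± 0.624 (SD, n = 3) in siCTU2 T and 7.07 ± 5.98 in siCTU2 TCHX, against 297 ± 45.2 in siGL2 T and 284 ± 21.9 in siGL2 TCHX. The interaction of CTU2 itself was 0.35 and did not pass the threshold (edgeR adjusted p = 0.871).

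The libraries held 7650793 to 15534331 counts and 16039 to 17495 genes with a count. Within groups, log2 values correlated across genes, which are not independent replicates, with r of 0.984 to 0.989. Of 7 melanocyte lineage markers, 5 had a mean above 1 CPM (counts scaled to library size), among them MITF, SOX10 and S100B, whereas MLANA and TYR were at or near 0. The 4 immune and 3 endothelial markers summed to at most 1.8 CPM in every library. The 5 fibroblast markers summed to 4.66 to 12 CPM, with COL3A1 at 0 in all 12. The 5 keratinocyte markers summed to 144 to 286 CPM, of which KRT10 made up nearly all, with KRT5 and DSG3 at 0 in all 12. The 5 markers of dedifferentiated melanoma summed to 201 to 403 CPM.

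At 3 h, the interaction passed the threshold (edgeR quasi-likelihood test, Benjamini-Hochberg adjusted p under 0.05) for 81 of 13114 genes tested (0.618%). In 61 genes (0.465% of those tested) the effect of cycloheximide was higher in siCTU2 cells, and in 20 (0.153%) it was lower. The interaction ranged in absolute value from 0.36 to 8.22, and all 81 genes had the same sign in each of the 3 same-numbered sets of libraries, as did 30.9% of all genes tested. The median interaction over all genes was 0.0785. The 81 calls rested on the replicate term of the model, which follows the linear model of the study. Without it only PHC2, ZNF593, KCTD5 and TMX1 passed, although the sign was kept in 81 of 81. With TMM scaling in place of scaling to stable genes, 59 genes passed, 31 higher and 28 lower, so that the share of higher effects went from 75.3% to 52.5%. Just inside the threshold stood MTF2 (interaction 0.72) and PTX3 (1.94), each at an edgeR adjusted p of 0.0447, and just outside it CTDSP2 (0.74) and EIF4A2 (0.58), at 0.0503.

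The 81 genes fell into a few patterns according to which cells showed a called effect of cycloheximide. These effects share their libraries with the interaction, so the following counts describe the calls and are not further evidence for them. Over all genes, cycloheximide raised 2238 mRNAs (17.1%) and lowered 88 (0.671%) in siCTU2 cells, and raised 1481 (11.3%) and lowered 361 (2.75%) in siGL2 cells. With TMM scaling it raised 1450 and lowered 1124 in siCTU2 cells, and raised 1324 and lowered 822 in siGL2 cells, so whether a single mRNA is called as risen or fallen, and hence its pattern, depends on the scaling. Of the 61 higher genes, 43 rose with cycloheximide in siCTU2 cells alone, 9 rose in both, 7 fell in siGL2 cells alone, and PXN and TMEM216 rose in siCTU2 and fell in siGL2 cells. Of the 20 lower genes, 11 rose in both, 5 rose in siGL2 cells alone, LASP1, TMX1 and CCT3 fell in siCTU2 cells alone, and TRNA fell in siCTU2 and rose in siGL2 cells.

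**Figure D1:**
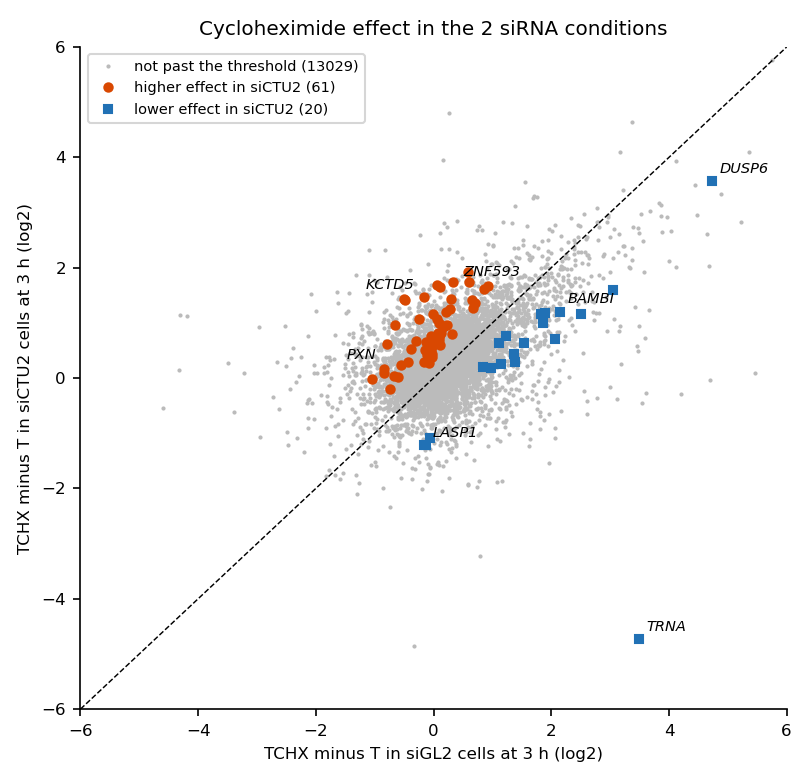
Each point is a gene, with the cycloheximide effect (TCHX minus T at 3 h, log2) in siGL2 cells on the x axis and in siCTU2 cells on the y axis; the dashed line marks equal effects. The 61 orange genes lie above the line and the 20 blue genes below it, and 4 genes that did not pass the threshold fall outside the axes.

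A first pattern consisted of higher genes that were low in siCTU2 cells under triptolide and less low when cycloheximide was present. Of the genes named for it below, ZNF593 and PHC2 rose with cycloheximide in both conditions and the others in siCTU2 cells alone. Not every gene that rose in siCTU2 cells alone was lower in siCTU2 than in siGL2 cells at 0 h. ZNF593, a zinc finger protein (chr1:26169908-26170873), had normalised counts of 52.6, 100 and 69.1 in siCTU2 T and 238, 266 and 231 in siCTU2 TCHX. In siGL2 cells the counts were 579, 684 and 604 in T and 790, 828 and 721 in TCHX. The arms did not overlap in either condition, but the gap was wider in siCTU2 cells, with an interaction of 1.41 (SE 0.18, edgeR adjusted p = 6.7e-05). PHC2, a Polycomb group protein, stood at 223, 221 and 225 in siCTU2 T and at 637, 606 and 574 in siCTU2 TCHX, against 897, 864 and 719 and then 962, 1170 and 904 in siGL2 cells. Its interaction was 1.14 (SE 0.14, edgeR adjusted p = 3.7e-05).

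DDX21, a nucleolar RNA helicase, showed the pattern at a higher level. It had 978, 1160 and 800 normalised counts in siCTU2 T and 1570, 1870 and 1470 in siCTU2 TCHX, whereas siGL2 T (5190, 5180 and 4310) and siGL2 TCHX (5340, 5400 and 4540) overlapped. The interaction was 0.69 (SE 0.09). KCTD5, an adaptor of cullin ubiquitin ligases, went from 53.5, 49.2 and 44 in siCTU2 T to 168, 170 and 137 in siCTU2 TCHX, with overlapping arms in siGL2 cells and an interaction of 1.63. The same pattern was found for C11orf24 (interaction 1.31), RBMS1, an RNA-binding protein (0.61), and G3BP1, a stress granule protein (0.45, not called without replicate 1), whose siGL2 effects were not called. The edgeR adjusted p of these 5 genes lay between 6.7e-05 and 0.0018. AIFM2, which protects membrane lipids from oxidation, had 2.59, 12.3 and 5.42 normalised counts in siCTU2 T, against 15.3, 24 and 22.1 in siCTU2 TCHX and 535 to 629 in the siGL2 libraries, so its interaction of 1.55 (edgeR adjusted p = 0.0389) rested on few counts in siCTU2 cells.

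Compared with siGL2, 48 of the 61 higher genes were lower in siCTU2 T at 3 h, when 18.1% of all genes tested were. Libraries taken at 0 h, which entered the interaction only through the scaling to stable genes, showed the same genes before decay. In them 44 of 61 (72.1%) were lower in siCTU2 cells, against 23.8% of genes tested, and 22 (36.1%) were lower by at least 2-fold, against 5.15%. The median difference siCTU2 minus siGL2 of the 61 genes was -0.68 at 0 h, -1.38 in the T arm at 3 h and -0.56 in the TCHX arm at 3 h. The interaction is the TCHX difference minus the T difference, so the choice of the 61 genes fixed that their T value lies below their TCHX value. The count of 48 comes from the same libraries and is a description too.

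To see whether this held for genes chosen on their 0 h counts, the 650 genes that were at least 2-fold lower in siCTU2 cells at 0 h were followed. Their median difference from siGL2 was -1.37 at 0 h, -1.54 at 3 h in T and -1.39 at 3 h in TCHX. Relative to 8703 genes that differed by less than 0.5 at 0 h, their median cycloheximide effect was 0.111, 0.069 and 0.127 in the 3 siCTU2 replicates and -0.0784, -0.0108 and -0.0272 in the 3 siGL2 replicates. The replicates did not overlap, with a difference of 0.141 and a two-sided exact permutation p of 0.1, the smallest that 3 against 3 allows (0.175 after adjustment over 7 such differences). The 630 genes at least 2-fold higher in siCTU2 cells at 0 h gave a difference of -0.0397 (-0.00801 without replicate 3 and -0.0681 without replicate 1), with overlapping replicates (exact permutation p = 0.3).

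**Figure D2:**
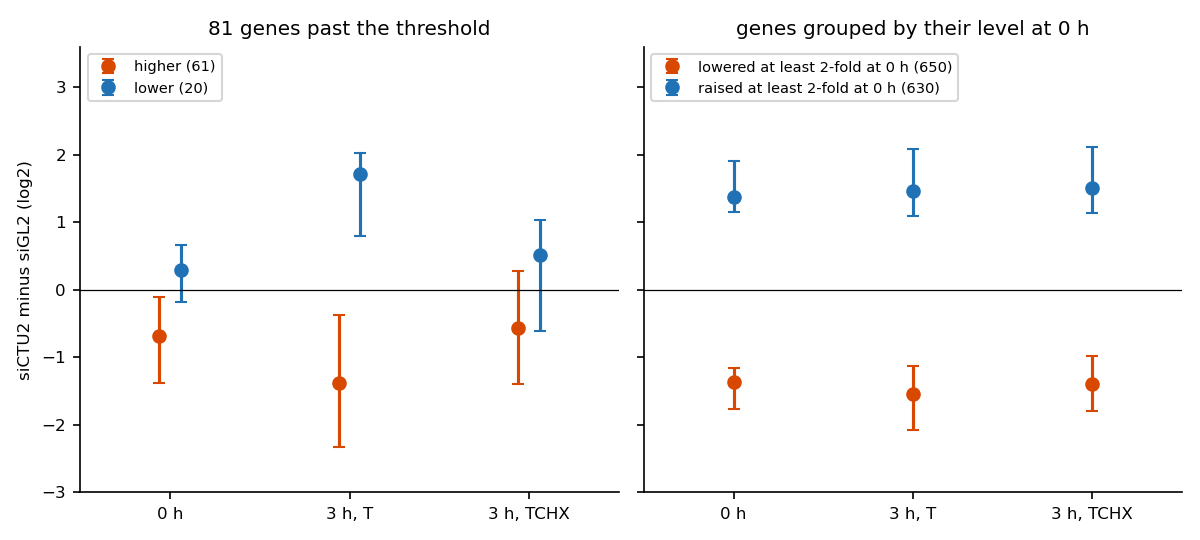
Points are the median difference siCTU2 minus siGL2 (log2) at 0 h and in the 2 arms at 3 h, and bars run from the lower to the upper quartile of genes. The 61 higher genes moved from -0.68 to -1.38 in T and stood at -0.56 in TCHX, and the 20 lower genes moved from 0.295 to 1.72 and stood at 0.516; the 650 genes lowered at 0 h moved from -1.37 to -1.54 and -1.39.

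Sites complementary to the seeds of the siCTU2 siRNAs were looked up in the 3′UTR of the GENCODE canonical transcripts. The letters searched, on the mRNA strand, were ATGACCA for siCTU2#1 and AAGGACT for siCTU2#2. At least 1 of them stood in the 3′UTR of 27 of the 61 higher genes (44.3%), of 2 of the 19 lower genes with a 3′UTR (10.5%) and of 2415 of 11197 tested genes (21.6%). The share was 45.1% among genes at least 2-fold lower in siCTU2 T at 3 h, whatever their interaction. The median 3′UTR of the higher genes was also longer, with 2046 bases against 1403 over all genes and 917 in the lower genes. A site for the sense strand of siCTU2#1 (CTTGATA) was likewise found in 24.6% of the higher genes and 11.1% of all. The AU-rich heptamer TATTTAT stood in 50.8% of the higher, 26.3% of the lower and 37.8% of all genes. These shares are descriptions, and the part of the siRNA seeds or of 3′UTR length in the result was not tested.

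Sites in the 3′UTR of higher genes named above that had one are shown, with the better paired site where a 3′UTR held 2. Coding sites were listed only where at least 15 of 19 bases could pair, which added AIFM2. Each site is written as 19 bases of the mRNA, with the letters complementary to the seed in capitals.
PHC2, siCTU2#2: ggttggaaatgAAGGACTt
ZNF593, siCTU2#2: gacagtgacgcAAGGACTa
DDX21, siCTU2#2: tatttaccaagAAGGACTt
G3BP1, siCTU2#2: tcctagaagatAAGGACTa
AIFM2, siCTU2#2: tggtggacatgAAGGACTc
The PHC2 site lies at chr1:33323671-33323689 in the last exon, exon 15, and 15 of its 19 bases could pair with the siRNA. The AIFM2 site, at chr10:70123951-70123969, lies in the coding part of exon 2 and also had 15. The sites of ZNF593 (chr1:26170754-26170772), DDX21 (chr10:68983638-68983656) and G3BP1 (chr5:151810618-151810636) lie in 3′UTRs and had 9, 13 and 10. The second sites of DDX21 and G3BP1 had 10 and 7. KCTD5, C11orf24 and RBMS1 had no such site in the 3′UTR, whereas LASP1, whose effect was lower in siCTU2 cells, had a siCTU2#1 site with 8 paired bases. A complete seed site with at least 15 paired bases was found in 44 of 12142 transcripts searched, 2 of them from the 81 genes. All genes with a seed site in the 3′UTR, compared with those without, had a median cycloheximide effect of 0.0857, 0.0477 and 0.052 in siCTU2 cells and of -0.00982, 0.00966 and 0.0158 in siGL2 cells. The difference was 0.0566 (0.0371 without replicate 1, exact permutation p = 0.1, the smallest possible). Among genes lowered at least 2-fold at 0 h alone, it was 0.0375, with overlapping replicates (exact permutation p = 0.4).

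A second pattern consisted of mRNAs that cycloheximide lowered in siGL2 cells, with no called fall, or a rise, in siCTU2 cells. PXN, which encodes the focal adhesion protein paxillin, fell in siGL2 cells from 836, 845 and 865 to 492, 637 and 607 normalised counts and rose in siCTU2 cells from 1350, 1570 and 1580 to 1690, 1930 and 1700 (interaction 0.80, SE 0.11, edgeR adjusted p = 0.00014). TMEM216, a protein of the ciliary base, also moved in opposite directions (interaction 1.42). Genes that fell in siGL2 cells alone included CDKN1A, the cell cycle inhibitor p21 (0.71), AKT1, a growth factor signalling kinase (0.63), B4GALT5, a galactosyltransferase (1.03), SLC20A2, a phosphate transporter (1.01), MTF2, a partner of Polycomb complexes (0.72), and HSPA8, a constitutive Hsp70 chaperone with many pseudogenes (0.54). Their edgeR adjusted p lay between 0.003 and 0.0447. CDKN1A was far higher in siCTU2 cells, at 2360, 3010 and 2410 in T and 2510, 2900 and 2520 in TCHX, than in siGL2 cells, at 324, 313 and 393 and then 213, 219 and 213.

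**Figure D3:**
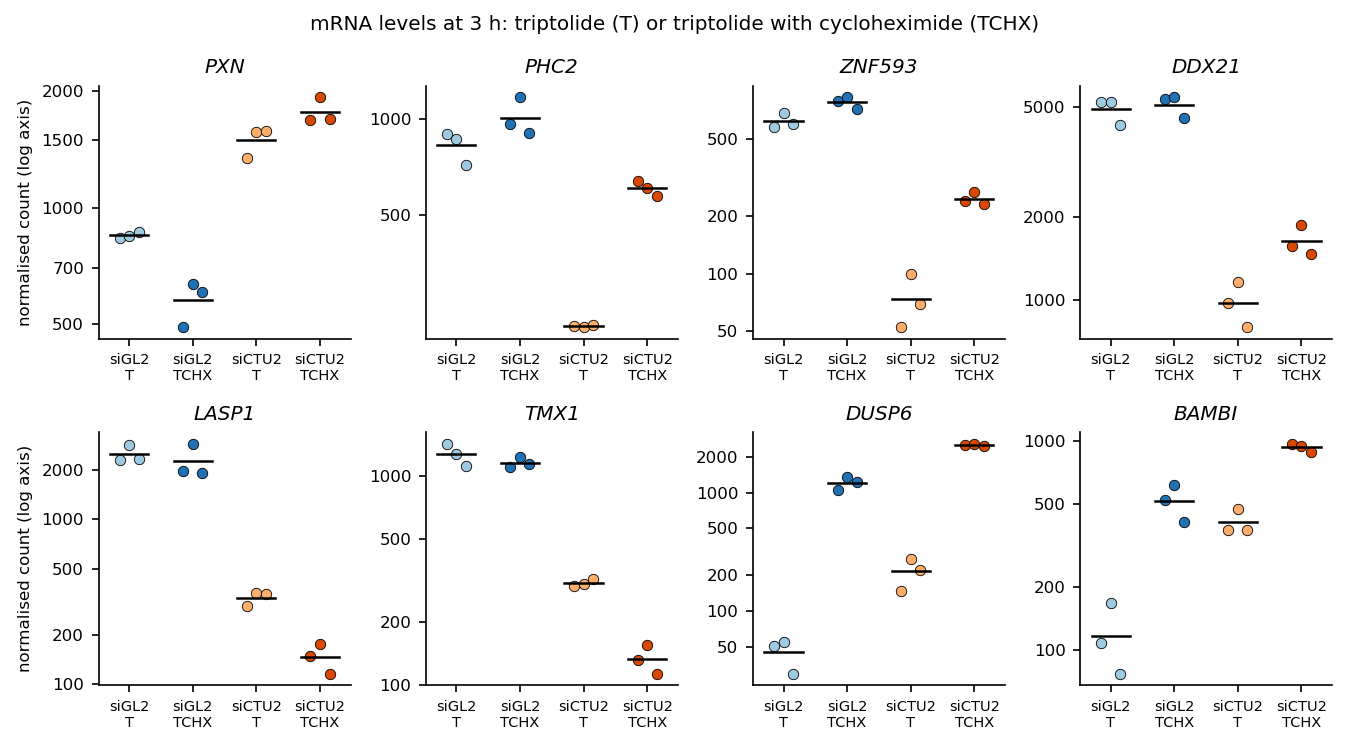
Normalised counts on log axes for 8 genes at 3 h; each point is a library, with replicates 1 to 3 from left to right, and the line is the mean of 3. PXN fell with cycloheximide in siGL2 cells and rose in siCTU2 cells, PHC2, ZNF593 and DDX21 stood lowest in siCTU2 T, LASP1 and TMX1 stood lowest in siCTU2 TCHX, and DUSP6 and BAMBI rose in both conditions from a lower level in siGL2 T.

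Among the 20 lower genes, 3 were mRNAs that cycloheximide reduced in siCTU2 cells. LASP1, an actin-binding adaptor (chr17:38869859-38921770), had 297, 356 and 352 normalised counts in siCTU2 T and 149, 174 and 116 in siCTU2 TCHX, against overlapping arms in siGL2 cells, with 2290, 2820 and 2320 in T and 1950, 2860 and 1920 in TCHX. The interaction was -1.06 (SE 0.14, edgeR adjusted p = 6.7e-05). TMX1, a membrane-bound oxidoreductase of the endoplasmic reticulum (chr14:51240162-51257655), had 296 to 321 in siCTU2 T and 131, 155 and 113 in siCTU2 TCHX, with 1430, 1280 and 1120 and then 1110, 1240 and 1140 in siGL2 cells. Its interaction was -1.07 (SE 0.15, edgeR adjusted p = 0.00014). CCT3, a subunit of the cytosolic chaperonin, stood at 112, 70.9 and 123 in siCTU2 T and 28.4, 60.4 and 52.9 in siCTU2 TCHX, against 4680 to 5770 in the siGL2 libraries, and was the least certain, with an interaction of -1.02 (SE 0.21) that DESeq2 did not call (adjusted p = 0.278). LASP1, TMX1 and CCT3 were already lower in siCTU2 cells at 0 h, by -2.01, -1.69 and -3.61 on the log2 scale. The 61 higher genes had a median of -0.68 at 0 h, with a lower quartile of -1.38. Some of them stood as low, such as AIFM2 (-3.29) and C11orf24 (-2.24). Of the 24 genes below -3 at 0 h, 3 were higher genes and 1 a lower gene. Between -3 and -2 the counts were 4 and 1. In siCTU2 cells cycloheximide lowered LASP1, TMX1 and CCT3, whereas it raised the mRNAs named for the first pattern. The part of the level at 0 h was not tested.

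TRNA, the name in the table of the mitochondrial alanine tRNA gene, had the largest interaction (-8.22), which came from 2 single libraries. Its counts were 1550 in siCTU2 T replicate 3 and 1622 in siGL2 TCHX replicate 2, and 8 to 48 in the other 10 libraries. It was not called without replicate 3 (edgeR adjusted p = 0.093) or by DESeq2 (0.108).

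The remaining 16 lower genes were mRNAs that cycloheximide raised in siGL2 cells, and the gain on the log2 scale was smaller in siCTU2 cells. DUSP6, a phosphatase that limits ERK signalling, had 50.3, 55.1 and 29.6 normalised counts in siGL2 T and 1050, 1350 and 1220 in siGL2 TCHX. In siCTU2 cells it had 147, 277 and 223 in T and 2530, 2570 and 2460 in TCHX. No groups overlapped, and the interaction was -1.16 (SE 0.21, edgeR adjusted p = 0.0046). BAMBI, a decoy receptor of the TGF-β family, went from 108, 167 and 77 to 523, 616 and 408 in siGL2 cells, and from 374 to 472 in siCTU2 T to 966, 944 and 880 in siCTU2 TCHX (interaction -0.94, edgeR adjusted p = 0.0095). NGDN, a nucleolar protein (-0.90), FADD, an adaptor of death receptors (-0.72), and the transcription regulator IFRD1 (-0.86) behaved alike, with edgeR adjusted p of 0.003 to 0.0095. In all, 17 of the 20 lower genes rose with cycloheximide in siGL2 cells and 16 were higher in siCTU2 T than in siGL2 T, as were 23.4% of all genes. In TCHX 13 of the 20 were higher, against 28.6% of all genes. The choice of the 20 genes fixed that their T difference lies above their TCHX difference, so these counts are descriptions. At 0 h, 13 of the 20 (65%) were higher in siCTU2 cells, against 29.2% of genes tested. There 4 (20%) were lower, against 23.8%. As a share of the 0 h level, which is the measure of the study, the gain of DUSP6 was larger in siCTU2 cells (0.516 against 0.343 in siGL2 cells). The direction for DUSP6 thus depends on the scale. The gain of BAMBI was 0.445 against 0.384, with overlapping replicates, so the lower effect was not seen on that measure. The other 14 of the 16 were lower in siCTU2 cells on that measure too, such as NGDN, with 0.267 against 0.445. No mRNA passed on it after adjustment. IFRD1 was not called when any 1 of the replicates was left out, FADD not without replicate 1 or 2, BAMBI and CCT3 not without replicate 1 or 3, and NGDN and DUSP6 not without replicate 3.

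Whether mRNAs kept by cycloheximide in other cells behaved in this way was examined with the pQ cells of the series, which received no siRNA and were kept 18 h in medium with glutamine before the same drugs. Of the 20 lower genes, 9 (45%) were at least 2-fold higher in TCHX than in T at 3 h in pQ cells, as were 1 of the 61 higher genes (1.64%) and 575 of 11570 genes with a mean of at least 20 normalised counts at 0 h (4.97%). The median interaction was 0.0839 for genes that cycloheximide changed by less than 0.5 in pQ cells, -0.00294 for those raised by 1 to 2 on the log2 scale, -0.287 for those raised by 2 to 3 (105 genes), and -0.543 for those raised by more than 3 (19 genes). In the last group the median cycloheximide effect was 2.75 in siCTU2 and 3.37 in siGL2 cells. Per replicate, the 575 genes exceeded the little-changed genes by 1.34, 1.07 and 1.21 in siCTU2 cells and by 1.35, 1.31 and 1.44 in siGL2 cells. The difference of -0.161 had overlapping replicates (exact permutation p = 0.2), and it was -0.321 for genes raised at least 4-fold in pQ cells (exact permutation p = 0.1, the smallest possible).

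**Figure D4:**
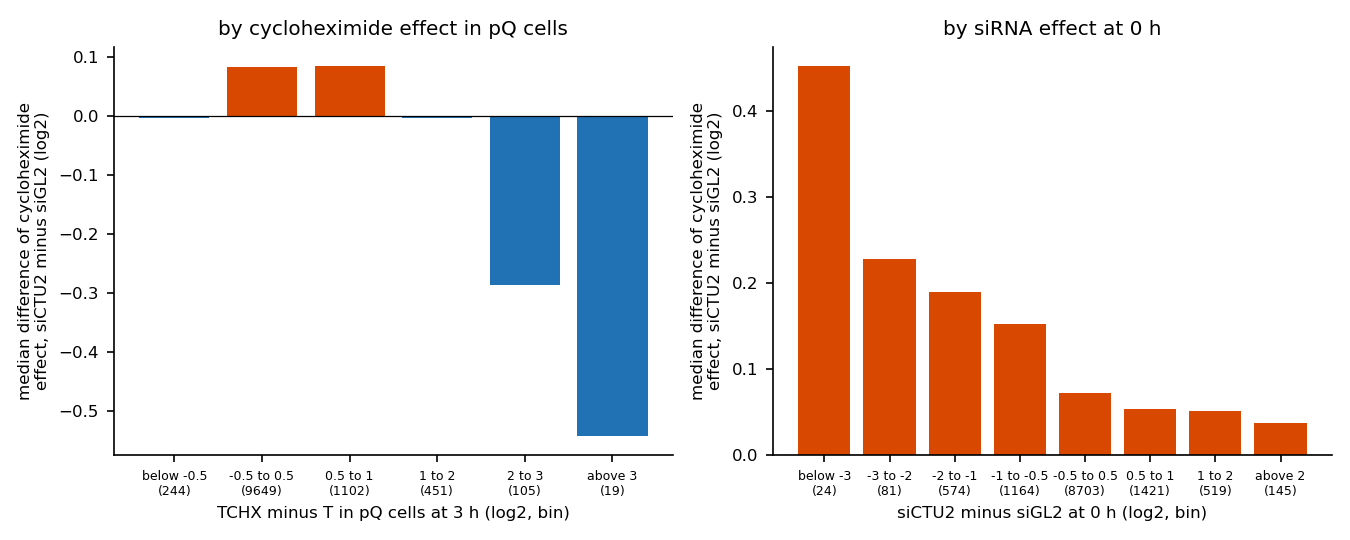
Bars show the median interaction (log2) of genes grouped by their cycloheximide effect in pQ cells (left) and by the difference siCTU2 minus siGL2 at 0 h (right), with the number of genes under each bar. On the left the median falls from 0.0839 in the little-changed group to -0.543 in the most raised, and on the right it falls from 0.452 in the most lowered genes to 0.0372 in the most raised; the median of all genes was 0.0785.

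The gene lists held few called genes, and the share called over all genes was 0.618%. Any call in a short list puts that list above this share. Of 22 immediate-early genes tested, only ZFP36L2, an mRNA decay factor, passed, with an interaction of 0.75. The list had a median of -0.144, and JUN was at -1.24 without passing the threshold (edgeR adjusted p = 0.178). Of 14 genes of ERK feedback, SPRED1, an inhibitor of Ras signalling, was higher (0.77) and DUSP6 lower. Of 345 zinc finger genes, ZNF593 and ZNF770 (0.66) were higher and ZNF768 (-1.09) lower, with a list median of 0.0259. No member passed among 14 snoRNA host genes (median 0.0593), 17 mRNAs known as substrates of nonsense-mediated decay (0.0243), 13 factors of that pathway (0.123), 19 amino acid stress genes (-0.0121) and 26 decay factors (0.0652). The same was true of 18 tRNA synthetases (0.0223), 34 replication and repair genes (0.122), 18 mitotic genes (-0.0475), 76 cytosolic ribosomal proteins (0.0274) and 75 respiratory chain genes (0.0609).

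The enzymes of the wobble uridine itself were of interest because CTU2 belongs to them. None of 13 passed, with a median of 0.26 and values from -1.46 to 0.57. CTU1, the partner of CTU2, was at -0.65 and MOCS3, which supplies the sulphur, at -1.46, with edgeR adjusted p of 0.204 and 0.0846. ALKBH8, which modifies the same uridine, was at 0.57.

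Codon content was compared next, since the tRNAs modified by the CTU2 enzyme read AAA, GAA and CAA. The cycloheximide effect of the 20% of genes richest in these codons (2233 genes) exceeded that of the poorest 20% by 0.152, 0.0945 and 0.0742 in the siCTU2 replicates, and by -0.0318, 0.0366 and 0.0343 in the siGL2 replicates. The replicates did not overlap, and the difference of 0.0938 (0.0489 to 0.121 with a replicate left out) gave a two-sided exact permutation p of 0.1, the smallest possible (0.175 after adjustment over the 7 differences). Splitting genes by the GC share at the third codon position gave -0.115 (-0.0597 without replicate 1), likewise without overlap and with the same exact permutation p, so the 2 properties cannot be told apart here. Across 11163 genes the interaction and the share of the 3 codons correlated with a Pearson r of 0.0666. The 61 higher genes had a median share of 6.44%, the 20 lower genes 4.49% and all genes 6.56%, so the called genes were not richer in these codons.

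Over all genes, the median cycloheximide effect was 0.197, 0.126 and 0.0894 in the siCTU2 replicates and 0.0109, 0.0925 and 0.0359 in the siGL2 replicates. The replicates overlapped, and the difference was 0.0913 (exact permutation p = 0.2). It was 0.0437 without replicate 1 and -0.00172 with TMM scaling. The measure of the study, the TCHX minus T difference divided by the 0 h level, was formed at 3 h alone, whereas the study modelled 3 h and 5 h together. The 0 h level was the mean of both arms, and limma replaced the study's linear model. Of 12288 mRNAs tested, 671 were higher (5.46%) and 221 lower (1.8%) in siCTU2 cells at an unadjusted limma p of at most 0.05. By chance, 614 would be expected in both directions together. No mRNA passed after adjustment (smallest limma adjusted p = 0.677).

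The same contrast was formed from the 12 libraries harvested at 0 h, when the drugs had just been added. It called 110 of 13089 genes (0.84%), 15 higher (0.115%) and 95 lower (0.726%), with a median over all genes of -0.126. With TMM scaling it called 116, 56 higher and 60 lower, so the excess of lower effects was not kept. Whether more genes were called at 3 h or at 0 h also depended on the fit, with 27 against 4 without replicate 1, 79 against 498 without replicate 2, 49 against 11 without replicate 3 and 4 against 0 without the replicate term. Of the 81 genes, 2 were among the 110, and their median at 0 h was -0.125. When the 0 h difference was subtracted, 48 of the 81 were still called among 249, of which 237 were higher and 12 lower. Of the 20 named genes, 5 were not called then, all of them lower genes (NGDN, BAMBI, FADD, IFRD1 and CCT3). In the medium experiment at 3 h, where cells without glutamine (mQ) were compared with pQ cells, the contrast called 105 of 12936 genes (0.812%), 103 higher (0.796%) and 2 lower (0.0155%), 7 of them among the 81. Of these 7, 5 had the opposite sign there and all 5 were lower genes, among them DUSP6 (1.08), BAMBI (1.44) and FADD (1.05). Of the 61 higher genes 58 were above 0 there, as were 70.2% of all genes, and of the 20 lower genes 3 were below 0, as were 29.8%.

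At 5 h the contrast called 0 of 12920 genes by edgeR, with 555 at an unadjusted p under 0.05. The 5 h libraries, including the one described next, entered the 3 h test only through the scaling to stable genes. With stable genes chosen on 0 h and 3 h, 48 genes passed at 3 h, 24 higher and 24 lower. The library labelled siCTU2 TCHX 5 h replicate 3 held 117 counts of CTU2, whereas replicates 1 and 2 held 2 each. LASP1 stood at 1040 in that library and at 862 and 580 in replicate 3 of siGL2 T and TCHX. Without replicate 3 the contrast called 5 of 12931 genes (0.0387%). Among them ZNF593 and PRELID1 were higher and LASP1 and TMX1 lower, and all 5 were among the 81 with the same sign. The interaction at 5 h without replicate 3 was 2.02 for ZNF593 and 1.84 for PRELID1, and -2.91 for LASP1 (SE 0.26, edgeR adjusted p = 0.00025) and -2.22 for TMX1.

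LASP1 at 5 h had 159 and 202 normalised counts in replicates 1 and 2 of siCTU2 T and 17.6 and 26.1 in those of siCTU2 TCHX, against 2300 to 3330 in the 4 corresponding siGL2 libraries. PRELID1, a lipid carrier of mitochondria, had 69.3 and 113 in siCTU2 T and 237 and 341 in siCTU2 TCHX. At 3 h PRELID1 had differed less, with 296, 283 and 234 in T and 310, 333 and 340 in TCHX (interaction 0.45). Without replicate 3, 56 of the 61 higher genes were above 0 at 5 h (91.8%, against 44.1% of all genes) and 16 of the 20 lower genes below 0 (80%, against 55.9%). With replicate 3 the counts were 61 of 61 and 13 of 20, where 75.7% of all genes were above 0 and 24.3% below.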

How the data were processed

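Cytoplasmic RNA of A375 cells was profiled with QuantSeq 3′ libraries. The authors trimmed forward reads (fastp 0.20.1), mapped them to GRCh38.p13 (HISAT2 2.2.1) and deposited raw counts per gene, assigned to NCBI exons with htseq-count (HTSeq 0.13.5, per the labels). No step for molecular identifiers was stated, so counts may hold PCR copies. Groups came from the sample titles; members and gene lists were chosen with earlier results of these data known.

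Genes kept by filterByExpr were tested with edgeR 4.0.16 (R 4.3.3; quasi-likelihood F-test, 4 group means and a replicate term, threshold 0.05). Counts were scaled to 198 stable genes (CPM above 0.2 at 0 h, at least 1.1 times higher at 3 or 5 h, in both arms and every replicate), so all levels are relative to these. DESeq2 1.42.0 and other settings were alternatives, and limma 3.58.1 tested the ratio measure. Genes named were the 10 with the smallest p in each direction with a mean normalised count of at least 50 in a group, plus CTU2 and up to 4 members per list with those called; genes that fell with cycloheximide in either condition, AIFM2, PRELID1 and the genes at the threshold were named after their values were seen, as were the groups of genes followed by 0 h level, pQ cells and seeds. 3′UTRs and codons came from GENCODE 44, siRNA sequences from the study's supplement. Some genes share reads with near-identical copies. A few of the genes this rule selects are counted but not reported here. On simulated counts for 12779 genes, 53.7% of genes changed 1.5-fold, 79.1% of those changed 2-fold and 100% of those changed 4-fold were recovered for the 3 h interaction. In the same simulation, 14 unchanged genes were called. Only 200 genes with a mean normalised count of at least 50 were changed. No replicate effect was simulated, so the dependence of the calls on the replicate term was not covered.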

Additional observations from a re-analysis of the deposited data

Results flagged for a closer look

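The following were marked because the effect of cycloheximide differed between conditions by a test of the difference itself. There were 81 such genes for siCTU2 against siGL2 at 3 h, 110 for the same contrast at 0 h and 105 for mQ against pQ at 3 h (edgeR). The higher interactions of the named genes at 3 h were 1.14 for PHC2, 1.41 for ZNF593, 0.69 for DDX21, 1.31 for C11orf24, 0.80 for PXN, 1.63 for KCTD5, 0.61 for RBMS1 and 0.45 for G3BP1. They were 0.77 for SPRED1, 1.03 for B4GALT5, 0.71 for CDKN1A, 0.75 for ZFP36L2, 0.63 for AKT1, 1.42 for TMEM216, 0.66 for ZNF770, 0.54 for HSPA8, 1.01 for SLC20A2, 0.72 for MTF2 and 1.94 for PTX3. The lower interactions were -1.06 for LASP1, -1.07 for TMX1, -0.90 for NGDN, -1.16 for DUSP6, -8.22 for TRNA, -0.94 for BAMBI, -0.72 for FADD, -0.86 for IFRD1, -1.02 for CCT3 and -1.09 for ZNF768. With 3 libraries in each group, no group was large enough to look for single outlying libraries by rule.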

How the results depend on the processing

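The count of 81 genes depended on the fit. It was 28 with stable genes passing at both times (8 genes; 10 higher and 18 lower), 48 with stable genes chosen on 0 h and 3 h (24 and 24), 198 with no filter on low counts, 4 with no replicate block, 0 with all 36 siRNA libraries in the fit (403 at an unadjusted p under 0.05), a fit that holds the 5 h replicate 3 libraries, whose labels were not tested, 249 with the 0 h difference subtracted and 4 when tested against a 1.5-fold difference. It was 59 with TMM, 64 with DESeq2 size factors (37 and 27) and 115 with DESeq2, and 27 to 79 when a replicate was left out (27 without replicate 1, 49 without replicate 3). For the 20 named genes, 0 interactions changed sign in any of the 13 settings. CTU2, not called, ranged from -0.816 (without replicate 2) to 0.816 with a replicate left out. The cycloheximide effect counted 1521 genes in siCTU2 and 970 in siGL2 cells with no replicate block, 1233 in siCTU2 with stable genes at both times, and with DESeq2 size factors 1406 higher and 1273 lower in siCTU2 and 1239 and 1089 in siGL2. It counted 1455 to 1821 in siCTU2 and 1114 to 1485 in siGL2 with a replicate left out. Same-numbered libraries of the 3 h groups deviated together with r of 0.0119 to 0.275 over 18 pairs, and other pairs with -0.222 to 0.0469 over 36. Not every same-numbered pair was above 0.1, and the labels do not say what the numbers share, so whether they mark shared experiments is not known. The edgeR and limma fits kept the block as the study's model has it, and so treat same-numbered libraries as belonging together. The exact permutation tests do not use the numbers.

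The 0 h contrast went from 110 to 0 with no replicate block and to 4 to 498 with a replicate left out. The 5 h contrast went from 0 to 2 with TMM, and to 0 to 5 with a replicate left out. The medium contrast went from 105 to 52 with TMM, 5 with no replicate block and 2 to 121 with a replicate left out. The ratio measure gave 438 higher and 373 lower mRNAs with TMM, and 146 lower with each arm divided by its own 0 h library. The difference in median cycloheximide effect was -0.00172 with TMM. The codon difference was 0.114 with the outer 10% of genes, 0.0894 with at least 100 counts and 0.0489 to 0.121 with a replicate left out. That of mRNAs short-lived in pQ cells, -0.0426 over all replicates, ranged from -0.127 to 0.0058, the last without replicate 3. The cause of these changes was not tested. The fits by 0 h level, seeds and pQ cells were chosen after the data were seen.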
